A study of Mus musculus with 10 samples.

Results

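The chemokine genes are the genes for small secreted or membrane-bound proteins that attract cells, and here they comprised every gene of the deposited table whose symbol begins with Ccl, Cxcl, Cx3cl or Xcl and goes on with a number. This rule took 38 of the 29583 genes in the table. Of these, 23 belonged to the CC family, 13 to the CXC family, 1 to the CX3C family and 1 to the XC family. The data came from RNA of MC3T3-E1, an osteoblast precursor line derived from mouse skull, cultured with β-ecdysterone, a plant sterol. The authors enriched mRNA with oligo(dT) beads and sequenced 10 libraries. The treated group had 6 libraries, at doses of 100, 150 and 200 μM kept for 5 or 10 days, and 1 library for each dose and day. The 0 μM group had 2 libraries, 1 from day 5 and 1 from day 10, from the same standard medium with none of the sterol. A further 2 libraries, A-5 and B-4, were labelled only as untreated, with no time. The labels give the strain C57BL/6 and the age newborn for every library. They also give mesenchymal stem cells of bone marrow as the source, while the titles name MC3T3-E1, so the libraries are described here by the name of the line. The protocol gives n = 3 for the RNA extraction, but 1 library stands for each dose and day, and p-values therefore measure the spread between these libraries, which may be technical.

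At 0 μM the libraries held 48951468 counts (day 5) and 31300928 counts (day 10). In treated cells the total lay between 27108562 and 58218009 counts. The untreated libraries A-5 and B-4 held 28772087 and 29789271 counts. Levels are given as CPM, counts scaled to 1000000 of the normalized library size, for 1 gene across libraries. Different genes are ordered by FPKM, the authors' values scaled to transcript length and library size. Summed levels, and the part of 1 gene in them, are in CPM unless FPKM is named. A count of 0 in a library allows up to 3 counts, which stood for between 0.0495 and 0.117 CPM in the 8 libraries of known time. Such limits and all counting intervals cover counting error only, and they hold for reads counted singly. Whether both mates of a pair were counted is not given in the sources used here, and if they were, the limits are too low and the intervals too narrow. The osteoblast markers Runx2, Col1a1, Col1a2, Spp1 and Sparc had counts in every library. Alpl, the alkaline phosphatase of bone, had 0 and 2 counts in the libraries at 0 μM, and 11250 counts over the 6 treated libraries.

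Chemokines bind to receptors on leukocytes and guide their migration along a gradient. Inflammatory chemokines are induced in many cell types, osteoblasts included, by cytokines that act through NF-κB and interferon signaling, while homeostatic chemokines are made steadily and place cells within tissues. In bone, osteoblast-lineage cells make Cxcl12, which retains blood stem cells in the marrow, and Ccl2, which attracts the monocytes from which osteoclasts arise.

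In treated cells, 7 of the 14 chemokine genes that could be tested were called lower than at 0 μM and 2 were called higher. A total of 33 members had a count in at least 1 library, 14 passed edgeR's filter on low counts, 19 had too few counts to be tested, and 5 had 0 counts in all 10 libraries. Calls required a fold change of more than 1 on the log2 scale together with an adjusted p below 0.05, taken over all genes tested (edgeR, Benjamini-Hochberg), and SE below is the standard error of the fitted log2 value. The 7 members called lower were Ccl2, Ccl7, Ccl5, Cxcl10, Cxcl5, Cx3cl1 and Ccl17, while of all genes tested 1005 of 16794 were called lower (5.98%). The 2 members called higher were Ccl28 and Cxcl17, while of all genes tested 2254 were called higher (13.4%), so the share of chemokines called higher was close to that of all genes. Ccl9, Cxcl12, Ccl25, Ccl27a and Cxcl16 were not called. The median log2 fold change of the 14 was -1.13, and that of all genes tested was 0.05. A negative value was found for 12 of the 14 and for 46.9% of all genes tested. Cxcl5, Ccl17 and Cxcl17 had at least 10 counts only in the group where they were high, so their difference was partly set by the filter. Ccl28 had at least 10 counts in 1 library at 0 μM and in 6 treated libraries. Its call was therefore partly set by the filter too. In these bulk samples, less RNA per cell and fewer cells that make a transcript cannot be told apart.

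**Figure D1:**
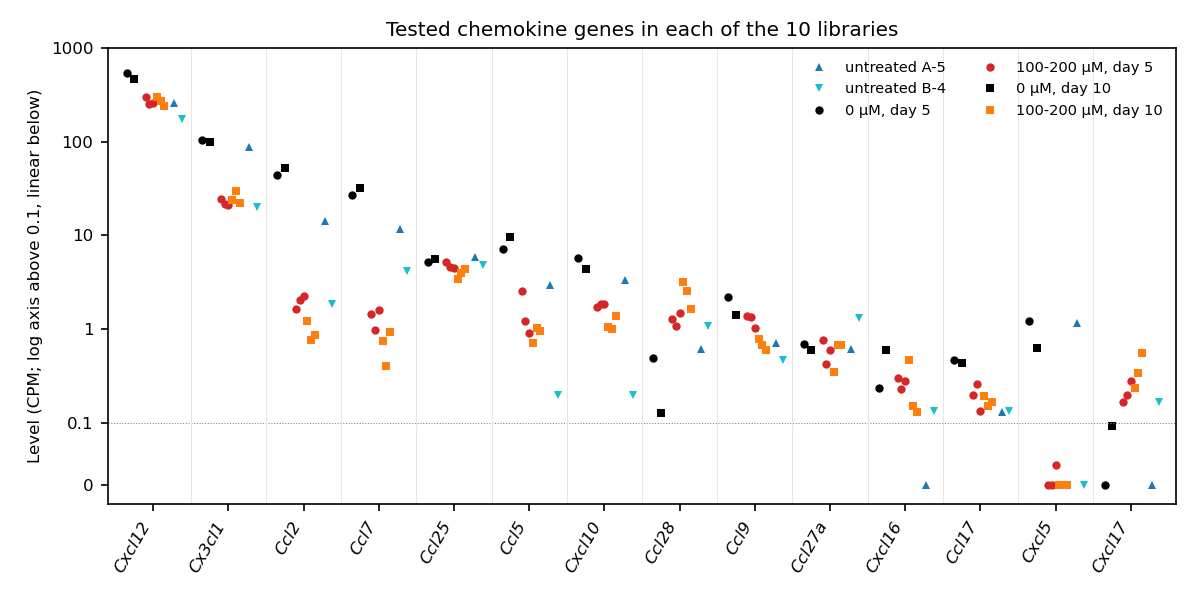
Level of each of the 14 tested chemokine genes (x axis) in each of the 10 libraries (y axis, CPM, log scale above 0.1 and linear below). Each point is 1 library: black for 0 μM, red and orange for treated cells on days 5 and 10, blue for the untreated libraries. For Ccl2 the 6 treated libraries sit between 0.764 and 2.26 CPM, below both 0 μM libraries at 44.1 and 51.9 CPM.

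Ccl2 and Ccl7 attract monocytes through the receptor Ccr2. Ccl2 (ENSMUSG00000035385) lies on chromosome 11, 82035571 to 82037453. It stood at 44.1 CPM at 0 μM on day 5 and at 51.9 CPM on day 10. With 100, 150 and 200 μM it stood at 1.62, 2.26 and 2.03 CPM on day 5 and at 1.21, 0.875 and 0.764 CPM on day 10. All 6 treated libraries were far below both libraries at 0 μM, and the lowest values were those of day 10. The counts behind these levels were 2252 and 1652 at 0 μM and between 31 and 137 in treated cells. The mean fell from 48.0 CPM to 1.46 ± 0.614 CPM (SD, n = 6), with a log2 fold change of -5.16 (SE 0.25, adjusted p = 1.14e-06). With each library left out in turn, the log2 fold change ran from -5.81 to -4.48. In FPKM the means were 54.0 and 1.58. Ccl7 (ENSMUSG00000035373) lies on chromosome 11, 82045712 to 82047525. It stood at 26.8 CPM at 0 μM on day 5 and 32.0 CPM on day 10. Its level was 1.45, 1.58 and 0.984 CPM with 100, 150 and 200 μM on day 5, and 0.742, 0.930 and 0.401 CPM on day 10. As with its neighbor Ccl2, the groups did not overlap, and each treated library was below 0 μM of its day. The log2 fold change of Ccl7 was -4.94 (SE 0.29, adjusted p = 2.99e-06), and it ran from -5.53 to -4.31 with each library left out in turn. The mean FPKM of Ccl7 was 33.6 at 0 μM and 1.12 in treated cells.

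The other members of this group were near or at 0. Ccl8 had 4 and 2 counts at 0 μM and 0 counts in all 6 treated libraries. At the 95% counting limit, Ccl8 was at least 3.59-fold lower in treated cells, and it had 8 counts in A-5. Ccl11, an eotaxin that attracts eosinophils, had 2 counts at 0 μM on day 5, 0 counts in treated cells, and 2 and 3 counts in A-5 and B-4. Ccl12 had 1 count, in B-4. The eotaxins Ccl24 and Ccl26 had 0 counts in all 10 libraries.

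Ccl5 and Ccl9 bind Ccr1, and Ccl5 attracts T cells and monocytes. Ccl5 (ENSMUSG00000035042) lies on chromosome 11, 83525778 to 83530518. At 0 μM it stood at 7.20 CPM on day 5 and 9.68 CPM on day 10. In treated cells it stood at 2.54, 0.908 and 1.21 CPM with 100, 150 and 200 μM on day 5 and at 0.703, 0.949 and 1.03 CPM on day 10. The library with 100 μM on day 5 was the highest treated library, and it was still below both at 0 μM. The mean fell from 8.44 CPM to 1.22 ± 0.667 CPM (SD, n = 6), with a log2 fold change of -2.86 (SE 0.36, adjusted p = 1.96e-04). With each library left out in turn, it ran from -3.41 to -2.24. With A-5 and B-4 as the control, it was -0.39 and Ccl5 was not called. Ccl9 (ENSMUSG00000019122) lies on chromosome 11, 83572919 to 83578636. Ccl9 is known to attract precursors of osteoclasts. It stood at 2.19 CPM at 0 μM on day 5 and 1.41 CPM on day 10. The level was 1.39, 1.02 and 1.35 CPM with 100, 150 and 200 μM on day 5 and 0.781, 0.595 and 0.669 CPM on day 10. All 6 treated libraries were below both at 0 μM, but by a small step on day 5, where the highest of them was close to 0 μM of day 10. The log2 fold change of Ccl9 was -0.94 (SE 0.25, adjusted p = 0.0137), short of the fold limit, so Ccl9 was not called, and with A-5 and B-4 as the control it was 0.70.

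The remaining 3 members of this group, Ccl6, Ccl3 and Ccl4, had at most 9 counts in a library. Ccl6, found in every library, had between 2 and 8 counts, with no separation between the groups. Ccl3 had 0 counts at 0 μM and in both untreated libraries, and 3, 9, 2 and 2 counts in 4 treated libraries. For reads counted singly, Ccl3 was at least 1.26-fold higher in treated cells at the 95% counting limit. Its groups overlapped, since other treated libraries had 0 counts too, so a rise of Ccl3 is not shown. Ccl4 had 2 counts, at 0 μM on day 5.

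Cxcl10, Cxcl9 and Cxcl11 are induced by interferon and attract activated T cells through Cxcr3. Cxcl10 (ENSMUSG00000034855) lies on chromosome 5, 92346638 to 92348889. It stood at 5.72 CPM at 0 μM on day 5 and 4.34 CPM at 0 μM on day 10. With 100, 150 and 200 μM the level was 1.72, 1.85 and 1.84 CPM on day 5 and 1.05, 1.40 and 0.994 CPM on day 10. The treated libraries of day 10 were the lowest, and none of the 6 reached either library at 0 μM. The mean fell from 5.03 CPM to 1.47 ± 0.386 CPM (SD, n = 6), and the log2 fold change was -1.78 (SE 0.20, adjusted p = 1.02e-04). With A-5 and B-4 as the control, it was -0.25 and Cxcl10 was not called. An exon of Art3 on the opposite strand overlaps an exon of Cxcl10, and the strand setting of the counting is not given in the sources used here, so reads of Art3 may be among these counts. Cxcl9 had 0 counts at 0 μM and 4, 8, 4, 8 and 3 counts in 5 treated libraries, with 0 at 150 μM on day 5. At the 95% counting limit, for reads counted singly, Cxcl9 was at least 2.24-fold higher in treated cells, though its groups overlapped. Cxcl11 had 10 and 0 counts at 0 μM and between 0 and 9 counts in treated cells, so its groups overlapped. Of the 3 genes, only Cxcl10 could be tested.

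The ligands of Cxcr2, which attract neutrophils, had at most 5 counts in any treated library. Cxcl5 (ENSMUSG00000029371) lies on chromosome 5, 90759360 to 90761624. At 0 μM it had 62 and 20 counts on days 5 and 10, that is 1.21 and 0.629 CPM. Of the treated libraries, 5 had 0 counts of Cxcl5, and the library with 150 μM on day 5 had 2. The ratio of treated to 0 μM was 0.00799, with a 95% counting interval from 9.52e-04 to 0.0298. The fitted log2 fold change was -6.46 (SE 0.67, adjusted p = 6.71e-05), a value that depends on the prior count used for counts of 0. Leaving out single libraries gave values from -8.00 to -6.04. With limma on log2(FPKM + 1) it was -0.60 and not called. Cxcl1 had 4 counts in each library at 0 μM and 2, 2, 0, 0, 0 and 0 counts in treated cells, a ratio of 0.164 with a 95% counting interval from 0.0361 to 0.611. Cxcl2 had at most 2 counts in any library of known time and 13 counts in A-5. Cxcl3 had at most 3 counts in a library and Cxcl15 at most 5, and both were found at 0 μM and in treated cells.

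Cx3cl1 and Cxcl16 are made as membrane proteins that hold cells by adhesion and are shed to attract them. Cx3cl1 (ENSMUSG00000031778) lies on chromosome 8, 94772009 to 94782427. It stood at 103 CPM at 0 μM on day 5 and 98.8 CPM on day 10. With 100, 150 and 200 μM its level was 24.6, 21.3 and 21.5 CPM on day 5 and 23.9, 22.4 and 29.4 CPM on day 10. The treated libraries were close to each other on both days, and far below 0 μM. The mean fell from 101 CPM to 23.9 ± 3.02 CPM (SD, n = 6), with a log2 fold change of -2.08 (SE 0.11, adjusted p = 1.67e-06). Cxcl16 had 12 and 19 counts at 0 μM and between 7 and 17 counts in treated cells. Its groups overlapped, and its log2 fold change of -0.66 (SE 0.58) had an adjusted p = 0.381. Exons of Cxcl16 and Zmynd15 overlap on opposite strands, so their reads may be mixed.

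Of the 10 homeostatic chemokines, 4 could be tested. Cxcl12 (ENSMUSG00000061353) lies on chromosome 6, 117168535 to 117181367. It stood at 543 CPM at 0 μM on day 5 and 462 CPM at 0 μM on day 10. Its level was 303, 256 and 251 CPM with 100, 150 and 200 μM on day 5 and 298, 243 and 273 CPM on day 10. Every treated library was below both at 0 μM. The mean was 503 CPM at 0 μM and 271 ± 25.2 CPM (SD, n = 6) in treated cells, and the log2 fold change of -0.89 (SE 0.11, adjusted p = 2.06e-04) did not reach the fold limit. With 0 μM of day 10 left out, it was -1.02 and Cxcl12 was called lower. The untreated library A-5 lay within the treated range, with 256 CPM, and B-4 lay below it, with 177 CPM. The direction for Cxcl12 thus depended on the control, and its log2 fold change was 0.33 with A-5 and B-4 as the control.

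Ccl25, a chemokine of thymus and gut that binds Ccr9, was not called. Ccl25 (ENSMUSG00000023235) lies on chromosome 8, 4325210 to 4360020. It stood at 5.19 and 5.63 CPM at 0 μM on days 5 and 10. With 100, 150 and 200 μM it stood at 5.25, 4.47 and 4.56 CPM on day 5 and 3.43, 4.37 and 4.01 CPM on day 10. The groups overlapped on day 5, and the log2 fold change was -0.32 (SE 0.18, adjusted p = 0.170). An exon of Elavl1 lies over an exon of Ccl25 on the opposite strand, so the level of Ccl25 is uncertain. Ccl27a, a skin chemokine, had 35 and 19 counts at 0 μM and between 9 and 36 counts in treated cells. Its groups overlapped, with a log2 fold change of -0.13 (SE 0.37, adjusted p = 0.794). Exons of Ccl27a and Il11ra1 overlap on opposite strands, and reads may be split between Ccl27a and its near-identical copy Ccl27b, so both levels are uncertain.

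Ccl28, a mucosal chemokine that binds Ccr10, rose. Ccl28 (ENSMUSG00000074715) lies on chromosome 13, 119623819 to 119654359. It stood at 0.489 CPM at 0 μM on day 5 and 0.126 CPM on day 10, from 25 and 4 counts. The treated level was 1.29, 1.49 and 1.08 CPM with 100, 150 and 200 μM on day 5 and 3.16, 1.66 and 2.52 CPM on day 10. The treated libraries were above both at 0 μM, and the step was widest on day 10, where 0 μM was lowest. The mean rose from 0.308 CPM to 1.87 ± 0.806 CPM (SD, n = 6), with a log2 fold change of 2.35 (SE 0.56, adjusted p = 0.00770). With 0 μM of day 10 left out, the log2 fold change of Ccl28 was 1.39 and no longer called, with 0 μM of day 5 left out it was 4.24, and the call was also lost with a test against the fold limit (glmTreat) and with limma on log2(FPKM + 1). The homeostatic members Ccl19 and Ccl21b had 0 counts in all 10 libraries. Ccl21a, a near-identical copy of Ccl21b, and Cxcl13 had 2 counts each, in 1 treated library. Cxcl14 had 3 counts, in B-4, and Ccl27b had at most 2 counts in a library.

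Ccl17, which attracts T cells through Ccr4, and Cxcl17, a mucosal chemokine, moved in opposite directions. Ccl17 had 24 and 14 counts at 0 μM and between 5 and 9 counts in treated cells. In CPM these were 0.470 and 0.440 at 0 μM and between 0.132 and 0.262 in treated cells, with no overlap. In A-5 and B-4 Ccl17 stood at 0.130 and 0.133 CPM, from 4 counts each, near the low end of the treated range. Against 0 μM the log2 fold change was -1.33 (SE 0.42, adjusted p = 0.0279), and the call was lost with DESeq2 and without either library at 0 μM. Cxcl17 had 0 and 3 counts at 0 μM and 5, 17 and 6 counts with 100, 150 and 200 μM on day 5. On day 10 it had 6, 30 and 18 counts, and all 6 treated libraries were above 0 μM in CPM. The ratio of treated to 0 μM was 8.96 with a 95% counting interval from 2.96 to 44.3, and the log2 fold change was 2.91 (SE 0.84, adjusted p = 0.0184). Its log2 fold change was 2.01 and not called without 0 μM of day 5, and 6.28 without 0 μM of day 10, and Cxcl17 no longer passed the filter without 150 or 200 μM of day 10. Of the other members, Ccl20 had at most 5 counts in a library and Ccl22, which also binds Ccr4, at most 4. Ccl1 had 2 counts, in B-4, and Xcl1, the 1 member of the XC family, had 0 counts in all 10 libraries.

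**Figure D2:**
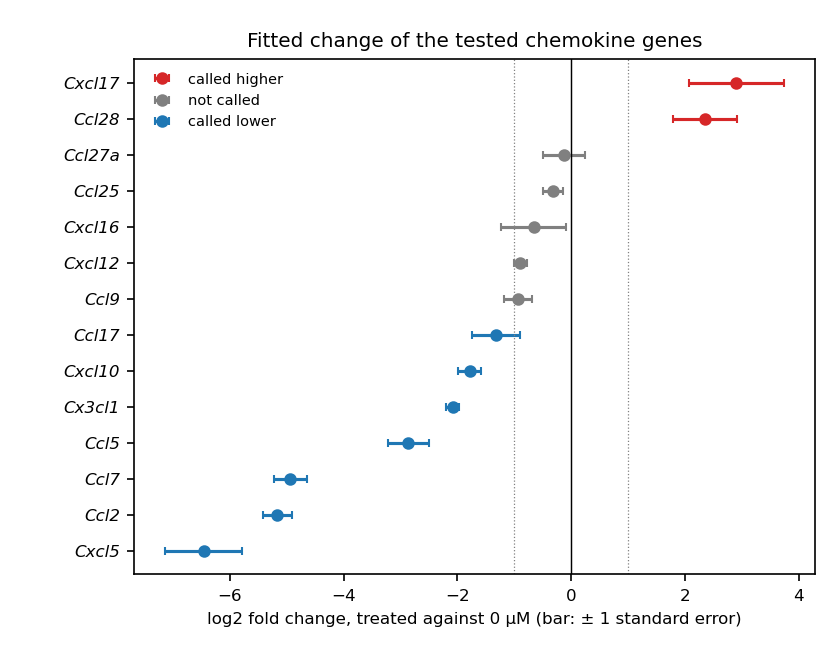
Fitted log2 fold change of treated cells (6 libraries) against 0 μM (2 libraries) for the 14 tested chemokine genes. Points are the estimates, bars are 1 standard error, dotted lines are the fold limit, and color gives the call. Values run from -6.46 for Cxcl5 to 2.91 for Cxcl17.

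In FPKM, which allows genes to be ordered, Cxcl12 was the highest member at 0 μM with a mean of 178. It was followed by Ccl2 (54.0), Ccl7 (33.6), Cx3cl1 (29.6) and Ccl5 (14.5). In treated cells the order was Cxcl12 (101), Cx3cl1 (6.58), Ccl25 (4.18), Ccl5 (2.03) and Ccl2 (1.58). The treated ranges of Ccl25 and Ccl5 overlapped, and so did those of Ccl5 and Ccl2. Ccl25 (5.46) and Cxcl10 (4.14) came next at 0 μM. The other 7 tested members had a mean FPKM under 1 in both groups, from 0.903 for Ccl27a down to 0.0560 for Cxcl17 at 0 μM. Summed over all 38 members, the level was 741 and 669 CPM at 0 μM and between 279 and 345 CPM in treated cells, with a mean of 309 ± 27.0 CPM (SD, n = 6). In CPM, which is not scaled to transcript length, Cxcl12 carried 71.2% of this sum at 0 μM and 87.6% in treated cells. In mean FPKM it stood at 178 of a summed 322 at 0 μM and at 101 of 120 in treated cells. In A-5 and B-4 the sum was 387 and 212 CPM, and 131 and 35.1 CPM without Cxcl12, so B-4 lay below every treated library with and without it. Without Cxcl12 the sum was 198 and 207 CPM at 0 μM and between 35.4 and 41.7 CPM in treated cells. The treated mean was then 18.8% of the mean at 0 μM, and 43.8% with Cxcl12.

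The size of the change was compared between the days, with 1 library at 0 μM on each. No member passed the test of a difference between days (0 of 14, edgeR), and of all genes tested 2 of 16794 passed (0.0119%). Each day has 1 library at 0 μM, so the spread in this test comes from the treated libraries alone, and the lone library is assumed to vary as they do. At an unadjusted p under 0.05 there were 3 of 14 members, Ccl2, Ccl7 and Ccl28, and 8.31% of all genes tested, and DESeq2 called 0 members. For Ccl2 the log2 fold change was -4.46 on day 5 and -5.82 on day 10, a difference of -1.35 (SE 0.34, adjusted p = 0.394). For Ccl7 it was -4.30 and -5.54, a difference of -1.24 (SE 0.51, adjusted p = 0.562). For Ccl28 it was 1.40 and 4.24, a difference of 2.84 (SE 0.80, adjusted p = 0.445). Cxcl12 and Cx3cl1 had differences of 0.24 (SE 0.23) and 0.23 (SE 0.24).

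Within treated cells, 12 members could be tested for a trend over dose and for a difference between days, since Ccl17 and Cxcl5 did not pass the filter there. None had a trend over dose (0 of 12, edgeR), at an unadjusted p under 0.05 or with DESeq2 either, while of all genes tested 0% passed and 2.37% had an unadjusted p under 0.05. The slope per 100 μM was -0.21 for Cxcl12 (SE 0.13), 0.05 for Cx3cl1 (SE 0.16) and -0.17 for Ccl2 (SE 0.37), on the log2 scale. Between day 10 and day 5, 0 of 12 members passed the test, and of all genes tested 0.718% were lower and 2.08% higher on day 10. At an unadjusted p under 0.05 there were 5 of 12 members and 18.3% of all genes tested. Ccl2, Ccl7, Cxcl10 and Ccl9 were lower on day 10, and Ccl28 was higher. The log2 difference was -1.08 for Ccl2 (SE 0.28, adjusted p = 0.0770) and 0.90 for Ccl28 (SE 0.29, adjusted p = 0.142). Of the alternatives, 3 called 1 member each, Ccl2, namely DESeq2, library size without TMM, and a filter of at least 1 count in total.

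The untreated libraries A-5 and B-4 differed from each other and from 0 μM. Ccl2 stood at 14.1 CPM in A-5 and 1.87 CPM in B-4, and Cx3cl1 at 88.0 and 20.1 CPM. B-4 was within the treated range for Ccl2 and just below it for Cx3cl1, while A-5 lay between the groups for both, close to 0 μM for Cx3cl1. Ccl7 stood at 11.7 CPM in A-5 and 4.14 CPM in B-4, both between the groups. Ccl5 stood at 2.99 CPM in A-5 and 0.200 CPM in B-4, and Cxcl10 at 3.32 and 0.200 CPM. For both genes A-5 was above the treated range and B-4 was below all treated libraries. Cxcl5 had 36 counts in A-5 and 0 counts in B-4. With these libraries in place of 0 μM, 10 members could be tested and 2 were called lower (2.87% of all genes tested were), Ccl2 and Ccl7, with log2 fold changes of -2.45 and -2.95. Ccl5 and Cxcl10 then had log2 fold changes of -0.39 and -0.25. With these libraries added to 0 μM, the calls of Ccl5, Cxcl10, Ccl17 and Cxcl17 were lost. Their log2 fold changes were then -2.04, -1.20, -0.71 and 2.30. The calls of Ccl2, Ccl7, Cxcl5, Cx3cl1 and Ccl28 were kept. With A-5 and B-4 alone, Cx3cl1 had a log2 fold change of -1.17 and Ccl28 one of 1.15, neither called, and Cxcl5, Ccl17 and Cxcl17 could not be tested.

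By position, 29 of the 38 members lay in 7 clusters, taken as neighbors less than 500000 bases apart (GENCODE M21, GRCm38). On chromosome 11, Ccl2 and Ccl7 share a cluster with Ccl11, Ccl12, Ccl8 and Ccl1 (82035571 to 82305690), and no other gene of the 6 could be tested. A further cluster on chromosome 11 holds Ccl5, Ccl9, Ccl6, Ccl3 and Ccl4 (83525778 to 83664683), of which Ccl5 was called lower. On chromosome 8, Cx3cl1 and Ccl17, both called lower, lie beside Ccl22 (94745590 to 94812036). On chromosome 5, Cxcl5 lies with Cxcl3, Cxcl15, Cxcl1 and Cxcl2 (90759360 to 90905938) and Cxcl10 with Cxcl9 and Cxcl11 (92321347 to 92365485). These 5 are the clusters that hold a called member, and the members called in them were the 7 called lower. Of all genes tested, 5.98% were called lower. For Cxcl5 and Ccl17 the filter was passed only through the group where they were high. The untested neighbors in these 5 clusters had at most 13 counts in a library. Of these, Cxcl9 and Ccl3 had counts in treated cells and 0 at 0 μM. The other clusters, Ccl27a to Ccl21a on chromosome 4 and Ccl26 with Ccl24 on chromosome 5, had no called member. Both members called higher, Ccl28 on chromosome 13 and Cxcl17 on chromosome 7, lie alone.

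**Figure D3:**
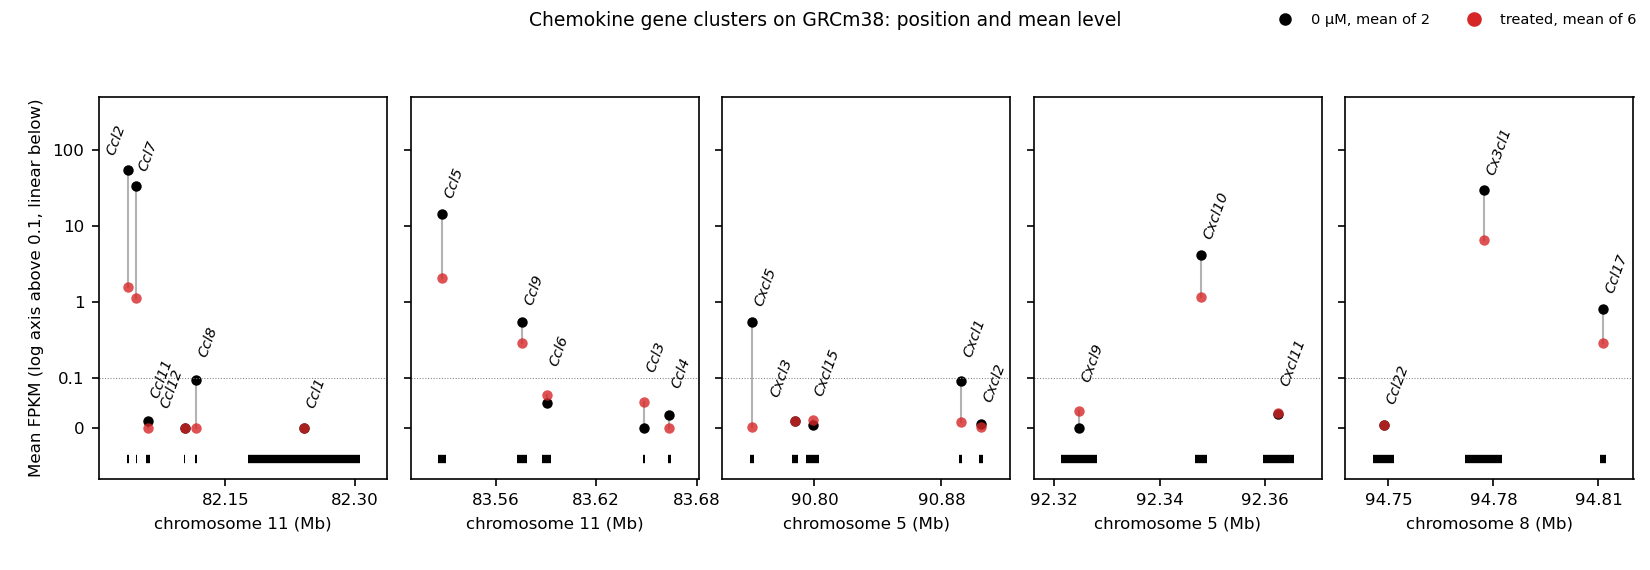
Mean FPKM (y axis, log scale above 0.1 and linear below) of the members of 5 chemokine gene clusters at their positions on GRCm38 (x axis, Mb, to scale within a panel; black bars are the genes). Black points are 0 μM (mean of 2 libraries) and red points treated cells (mean of 6), joined by a line. Ccl2 and Ccl7 have the longest lines on chromosome 11, from 54.0 to 1.58 and from 33.6 to 1.12 FPKM.

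RefSeq promoters, from 250 bases before to 50 bases after a start of transcription (GRCm38.p6), were matched by symbol, with 33 promoters for 27 of the 38 members. No entry was matched for Ccl11, Ccl2, Ccl24, Ccl26, Ccl4, Ccl5, Ccl7, Cxcl11, Cxcl16, Cxcl17 or Cxcl5. The Ccl21b entry (chromosome 4, 42172870 to 42173169) lies apart from the gene itself (42255767 to 42256432), so it may not be its promoter. Some entries of Ccl27a overlap each other, and so do some of Ccl27b, so the 33 are not all separate. Both strands were searched for the NF-κB letters GGGNNNTTCC, the interferon element letters GAAANNGAAA and the AP-1 letters TGANTCA, and overlapping matches were allowed. The NF-κB letters were in 7 of the 33 promoters (21.2%) and in 5.56% of all 32851 promoters. They were in the promoters of Cxcl1, Cxcl2, Cxcl3, Cxcl10, Ccl1, Ccl9 and Ccl20. The interferon letters were in 3 promoters (9.09%, all promoters 3.44%), those of Cxcl10, Cxcl14 and Ccl19. The AP-1 letters were in 7 promoters of 6 genes (21.2%, all promoters 7.81%), namely Cxcl9, Cxcl10, Ccl9, Ccl27a, Ccl27b and Ccl28. A match to such letters is a description and does not show that a factor binds. Of the 9 members called, 4 had a promoter entry, Cxcl10, Cx3cl1 and Ccl17 among the lower and Ccl28 among the higher. These 4 are shown to set the letters of lower and higher genes side by side, 5′ to 3′ on the strand of the gene, with matches in capitals. The Cxcl10 promoter (chromosome 5, 92348840 to 92349139, minus strand) holds interferon letters from 213 bases before the start, NF-κB letters from 159 and from 104, and AP-1 letters from 74. No match was found in the windows of Cx3cl1 (chromosome 8, 94771930 to 94772229, plus strand) and Ccl17 (chromosome 8, 94810203 to 94810502, plus strand). In Ccl28 (chromosome 13, 119623569 to 119623868, plus strand) the AP-1 letters begin at base 21 of the transcript.
Cxcl10: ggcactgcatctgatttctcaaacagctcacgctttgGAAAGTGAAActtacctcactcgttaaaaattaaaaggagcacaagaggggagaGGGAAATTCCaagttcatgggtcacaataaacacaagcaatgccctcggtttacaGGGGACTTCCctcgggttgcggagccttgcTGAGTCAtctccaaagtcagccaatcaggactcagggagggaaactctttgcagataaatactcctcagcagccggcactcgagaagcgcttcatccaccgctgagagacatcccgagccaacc
Cx3cl1: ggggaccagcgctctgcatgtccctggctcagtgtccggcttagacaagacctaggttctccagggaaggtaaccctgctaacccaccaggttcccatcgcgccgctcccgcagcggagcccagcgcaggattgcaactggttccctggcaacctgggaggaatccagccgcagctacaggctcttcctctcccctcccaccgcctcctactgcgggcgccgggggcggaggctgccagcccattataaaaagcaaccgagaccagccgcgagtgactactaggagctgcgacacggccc
Ccl17: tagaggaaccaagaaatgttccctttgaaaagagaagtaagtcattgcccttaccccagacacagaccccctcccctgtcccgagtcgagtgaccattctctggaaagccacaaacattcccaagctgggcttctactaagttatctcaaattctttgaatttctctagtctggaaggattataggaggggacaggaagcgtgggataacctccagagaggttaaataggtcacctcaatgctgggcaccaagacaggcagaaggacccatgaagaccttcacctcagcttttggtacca
Ccl28: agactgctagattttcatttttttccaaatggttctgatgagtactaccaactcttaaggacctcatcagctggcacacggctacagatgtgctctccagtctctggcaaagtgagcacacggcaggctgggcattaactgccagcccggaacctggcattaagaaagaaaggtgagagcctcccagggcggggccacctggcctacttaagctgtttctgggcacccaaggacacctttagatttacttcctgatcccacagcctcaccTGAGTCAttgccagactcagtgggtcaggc

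Of 23 chemokine receptor genes, 6 could be tested, 2 were called higher and 0 lower, with a median log2 fold change of 0.82 (all genes tested 5.98% lower and 13.4% higher, median 0.05). Cxcr2, Ccr1 and Ccr3 had 0 counts in all 10 libraries. Ackr4, an atypical receptor that removes Ccl19, Ccl21 and Ccl25, rose from a mean of 0.871 CPM to 35.2 ± 18.2 CPM (SD, n = 6), with a log2 fold change of 5.12 (SE 0.34, adjusted p = 5.53e-06). With 100, 150 and 200 μM Ackr4 stood at 15.4, 24.8 and 17.5 CPM on day 5 and at 52.5, 44.3 and 56.5 CPM on day 10. The pooled mean thus covers unlike days. It stood at 2.60 CPM in A-5 and 8.64 CPM in B-4. Ccr7 was the other receptor called higher, at under 1 CPM and with 7 counts over both libraries at 0 μM, so its call was partly set by the filter. Ackr3, which binds Cxcl12, was not called, with 10.6 and 16.1 CPM at 0 μM and between 11.1 and 18.8 CPM in treated cells. Cxcr4, the signaling receptor of Cxcl12, had at most 4 counts in a library, and Ccr2, the receptor of Ccl2 and Ccl7, had 0 counts at 0 μM and 9 in treated cells. Ackr3, Cxcr4, Ccr2 and Ccr7 were named here after their values were seen.

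Of 42 genes of the NF-κB pathway and its targets, 38 could be tested, 13 were called lower and 0 higher, with a median log2 fold change of -0.76 (all genes tested 5.98% lower and 13.4% higher, median 0.05). Saa3, an acute phase protein, fell from a mean of 88.6 CPM to 1.65 ± 1.25 CPM (SD, n = 6), with a log2 fold change of -6.05 (SE 0.39, adjusted p = 4.70e-06). Nfkbiz, a nuclear cofactor of NF-κB, fell by 3.95 on the log2 scale (SE 0.11, adjusted p = 5.99e-08), and the cytokine Il6 by 3.67 (SE 0.28, adjusted p = 1.24e-05). Csf1, the growth factor of macrophages and the most abundant gene of the list in FPKM, had a log2 fold change of -0.83 (SE 0.10, adjusted p = 1.79e-04) and was not called. For Saa3 the untreated libraries had 67.6 CPM in A-5 and 4.20 CPM in B-4, an order like that of Ccl2. The summed level of the list was 3621 and 3486 CPM at 0 μM and between 2038 and 2320 CPM in treated cells, with 2869 CPM in A-5 and 2132 CPM in B-4.

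Of 27 genes of the interferon response, 24 could be tested, 4 were called lower and 1 higher, with a median log2 fold change of -0.09 (all genes tested 5.98% lower and 13.4% higher, median 0.05). Gbp2, a GTPase induced by interferon, had a log2 fold change of -1.85 (SE 0.21, adjusted p = 1.10e-04). The transcription factor Irf1 had one of -1.71 (SE 0.11, adjusted p = 4.97e-06), and Ifit2 one of -1.15 (SE 0.13, adjusted p = 1.17e-04). Mx2, an antiviral GTPase, rose, with 1.17 (SE 0.28, adjusted p = 0.00719). Stat3, the most abundant gene of the list in FPKM, was not called, with -0.22 (SE 0.12, adjusted p = 0.174). Besides Gbp2, Irf1 and Ifit2, Rsad2 was called lower (-1.18, SE 0.29, adjusted p = 0.00888). No other gene of the list was called.

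Of 12 genes of the glucocorticoid response, the receptor Nr3c1 among them, all could be tested, 5 were called higher and 0 lower, with a median log2 fold change of 0.62 (all genes tested 5.98% lower and 13.4% higher, median 0.05). Zbtb16, a zinc finger factor, rose from 0.269 CPM to 8.14 ± 2.56 CPM (SD, n = 6), with a log2 fold change of 5.07 (SE 0.37, adjusted p = 9.22e-06). Zbtb16 had 19 counts over both libraries at 0 μM, so its call was partly set by the filter. Tsc22d3, which encodes the protein GILZ, had a log2 fold change of 3.63 (SE 0.17, adjusted p = 7.82e-07). Fkbp5, a chaperone of the glucocorticoid receptor, had one of 3.03 (SE 0.13, adjusted p = 6.22e-07), and the metallothionein Mt2, the most abundant of the list in FPKM, one of 2.21 (SE 0.26, adjusted p = 1.54e-04). The untreated libraries differed here too. Tsc22d3 stood at 110.3 CPM in A-5 and 1279 CPM in B-4, against 84.7 and 112 CPM at 0 μM and between 1097 and 1369.5 CPM in treated cells. Fkbp5 stood at 88.7 CPM in A-5 and 959.7 CPM in B-4, against a mean of 67.5 CPM at 0 μM. In treated cells Fkbp5 stood between 463.5 and 632.7 CPM, below B-4. Zbtb16 stood at 2.57 CPM in B-4, above 0 μM but below the treated range of 5.35 to 11.5 CPM. B-4, the untreated library with low Ccl2, Cx3cl1, Ccl5 and Cxcl10, was thus also the 1 with high Tsc22d3 and Fkbp5. It was not like the treated libraries throughout. Ccl7 in B-4, at 4.14 CPM, was above the treated maximum of 1.58 CPM. Of the osteoblast markers called higher, Runx2 and Sparc lay within the treated range in B-4. Sp7 (10.5 CPM), Alpl (3.50 CPM) and Ibsp (9.11 CPM) lay below the treated minima of 52.3, 16.1 and 72.9 CPM. The labels do not say how B-4 was cultured beyond untreated, so what it stands for as a control is uncertain. The part of the glucocorticoid response genes in the levels of the chemokines was not tested.

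For the markers of other cell types and of osteoblasts, calls stand beside 13.4% of all genes tested called higher and 5.98% lower. Of 14 leukocyte markers, 7 could be tested, 3 were called higher and 1, Cd14, lower, with a median log2 fold change of 1.01, also with Spi1, which had 0 counts at 0 μM, at its lower bound. Their summed level was 28.1 and 40.6 CPM at 0 μM, between 35.9 and 68.1 CPM in treated cells, 28.7 CPM in A-5 and 29.9 CPM in B-4. Lyz2 carried the largest part of this sum in every library, with 15.4 and 28.3 CPM at 0 μM. In treated cells Lyz2 stood between 30.0 and 61.3 CPM (log2 fold change 1.09, SE 0.31, adjusted p = 0.0190). Mrc1 (3.73, SE 0.76, adjusted p = 0.00339) and Spi1 were the others called higher, at most at 1.03 CPM, while Cd14 fell from a mean of 10.2 to 4.06 CPM. Mrc1 and Spi1 had under 10 counts in each library at 0 μM, so their calls were partly set by the filter. Ptprc, Adgre1 and Spi1 had 0 counts at 0 μM and at most 17 counts in a treated library, and Tyrobp had 0 counts in all 10 libraries, while Cd68 had 123, Csf1r 32, Fcer1g 10, Aif1 7 and Itgam 6 counts over the libraries at 0 μM. Of 6 endothelial markers, 4 could be tested and 2 were called higher, with a median log2 fold change of 1.26. The 2 called, Cdh5 and Tek, had 5 and 14 counts over both libraries at 0 μM, so their calls were partly set by the filter too. Their summed level was 0.783 and 1.16 CPM at 0 μM, between 2.18 and 2.77 CPM in treated cells, 1.01 CPM in A-5 and 0.867 CPM in B-4, with Pecam1 the most abundant in FPKM. For leukocyte markers the sums of the groups overlapped, with Lyz2 higher and Cd14 lower in treated cells, and for endothelial markers they were higher in treated cells. Their part in the levels of the chemokines was not tested. Of 12 osteoblast markers, all could be tested, 5 were called higher and 1, Dmp1, lower, with a median log2 fold change of 0.96. Among those called higher, Alpl had 2 counts over both libraries at 0 μM, so its call was partly set by the filter.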

How the data were processed

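RNA of MC3T3-E1 cells was measured in 10 libraries. The authors deposited raw counts per gene, and their notes name HISAT2 (2.0.4) and GATK (3.2-2) with no role given. The counting program, genome build, annotation and strand setting are not given in the sources used here. FPKM values, scaled by the authors to transcript length and library size, were used as deposited. In the table of counts, values equal to 2 (12040) outnumbered values equal to 1 (2820). Whether mates of a pair were counted separately is not given in the sources used here; if they were, counting intervals are too narrow and the limit of 3 counts is too low. Chemokine genes were taken by symbol. The members and the context lists were chosen with earlier results of these data known. Genes other than members were named by rule: the called genes of a list with the largest fold changes in each direction and a level of at least 1 CPM, and the most abundant gene. Cell-type markers, and Rsad2, Nr3c1, Ackr3, Cxcr4, Ccr2, Ccr7, Cxcr2, Ccr1 and Ccr3, were named outside this rule.

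Counts were computed into CPM with TMM factors and tested with edgeR (4.0.16, filterByExpr, quasi-likelihood, treated plus day) in R (4.3.3) on the 8 libraries of known time, 6 treated and 2 at 0 μM. A gene counted as changed at an adjusted p below 0.05 and a log2 fold change above 1 in size. The same model with an interaction compared the days, and models on treated libraries alone tested dose and day, at an adjusted p below 0.05. A count of 0 was given a limit of 3 counts. Counting intervals are exact 95% intervals. Alternatives used DESeq2 (1.42.0), limma (3.58.1) on log2 FPKM, other scaling, filters, covariates, fold limits and controls, and each library left out in turn. The scripts were tested on simulated data. Summaries and figures used Python (3.11.15), pandas (2.3.3), numpy (2.4.6), scipy (1.17.1) and matplotlib (3.10.9). Untreated libraries had no time in their labels and entered only alternatives and values. The authors' own comparison columns and annotation terms were not used.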

Additional observations from a re-analysis of the deposited data

Results flagged for a closer look

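In the 14 tested members, the 6 treated libraries were checked for 1 library far from the others, which chance alone gives in about 1 of 20 groups. It was found for 1 gene, Cxcl5, at 0.0330 CPM (2 counts) with 150 μM on day 5, while the other 5 treated libraries had 0 counts. This rests on 2 counts.

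The untreated libraries, which the main comparisons did not use, held 2 signals of members whose 95% counting interval lay above the intervals of both libraries at 0 μM. Other members had higher levels there too, with overlapping intervals. Cxcl2 had 13 counts in A-5, against at most 2 counts in any library of known time. Ccl28 had 32 counts in B-4, that is 1.07 CPM, against 0.489 and 0.126 CPM at 0 μM. No time is given for these libraries, and these differences were not tested.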

How the results depend on the processing

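The calls of 7 lower and 2 higher members were the same 9 genes without TMM, with DESeq2 size factors, without the day covariate, with depth class and in limma on log2(FPKM + 0.1). Of all genes tested, these settings called between 10.4% and 13.8% higher and between 5.82% and 6.56% lower. DESeq2 and a filter of at least 1 count in total gave 6 lower and 2 higher, without Ccl17. Of all genes tested, DESeq2 called 13.8% higher and 5.8% lower, and that filter gave 9.24% and 3.98%. That filter tested 30 members, with sparse ones such as Cxcl9, Ccl3 and Ccl8 among them, and no further member was called. With no fold limit, 9 members were lower, with Ccl9 and Cxcl12 added, as that rule allows, and of all genes tested 20.8% were lower.

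In the main setting, 13.4% of all genes tested were called higher and 5.98% lower. Calls of higher members fell to 0 with at least 10 counts in every library, where 8 members were tested and neither Ccl28 nor Cxcl17 was among them. There 5 members were lower, without Cxcl5 and Ccl17 (all genes tested 8.28% higher and 5.55% lower). Calls of higher members were 0 as well with a test against the fold limit (glmTreat), with 6 lower (Ccl17 lost). The same held with limma on log2(FPKM + 1), which shrinks low values by construction, with 5 lower (Cxcl5 and Ccl17 lost). Of all genes tested, glmTreat called 6.8% higher and 2.55% lower, and limma on log2(FPKM + 1) called 3.13% and 3.64%. With A-5 and B-4 as the control instead of 0 μM, 0 members were higher and 2 lower (all genes tested 6.73% and 2.87%). The log2 fold changes of Ccl9 (0.70) and Cxcl12 (0.33) then turned positive. With A-5 and B-4 added to 0 μM, 1 member was higher and 4 were lower (all genes tested 8.9% and 3.08%), and Cxcl16 turned to 0.067. The cause was not tested.

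With each treated library left out in turn, 1 to 2 members were higher and 7 lower. Of all genes tested, 12.4% to 13.2% were then higher and 5.72% to 6.12% lower. Without 0 μM of day 5, the calls of Ccl17 and Cxcl17 were lost. Without 0 μM of day 10, those of Ccl17 and Ccl28 were lost and Cxcl12 was gained. With each library left out in turn, the log2 fold change of Cxcl16 ran from -1.38 to 0.19. It was positive without 0 μM of day 10, and the cause was not tested. Without either library at 0 μM, the remaining 1 is assumed to vary as much as the treated libraries. The difference between days in treated cells gave 1 member, Ccl2, with DESeq2, without TMM and with at least 1 count in total; the cause was not tested. No setting gave a trend over dose or a change that differed between days, a test with 1 library at 0 μM for each day. The summed level in treated cells was 37.2% of that at 0 μM in FPKM, which weighs short transcripts more. In the 250 bases before the start alone, 4 promoters had AP-1 letters, since the window is shorter. All other log2 fold changes kept their direction.

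Libraries could not be paired by replicate because the labels give no replicate numbers shared between the groups. The day, which they do share, is in the model. The comparison rests on 2 libraries at 0 μM, 1 for each day, and the labels do not say whether libraries are independent cultures. Each pairing of dose and day has 1 library. Members under about 10 counts were too sparse to test in the main model, and a missing call does not show equal levels. The untreated libraries differ from 0 μM in ways the labels do not describe. The strand setting is unknown, so members with overlapping exons on the other strand are uncertain.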
